A study of Mus musculus with 2 samples.

Results

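Genes of olfactory sensory neurons were followed in the palate of mouse fetuses at E18.5 (embryonic day). The set holds 9 genes: Omp, Cnga2, Gng13, Gnal and Adcy3, which act in or mark the mature odour-sensing neuron, and Neurog1, Neurod1, Ebf1 and Lhx2, transcription factors of its differentiation. They were taken by name, with earlier results of these data known. Every probe set that the platform annotation gives to exactly 1 of them was used. This gave 22 of the 34945 probe sets that have 1 gene, and 9 of 18193 genes.

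Total RNA was hybridised on 2 Affymetrix arrays, 1 per genotype, both on the BALB/c background. The first was palate labelled Myf5-/-:MyoD-/-, null for both myogenic factor genes, and the second was wild-type palate. The study's question was the role of skeletal muscle in the growth of the palate. The labels give neither the number of fetuses behind a sample nor the removed part of each gene. With no replicates there was no test, and every difference below is between these 2 arrays.

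In the olfactory epithelium of the nose, an odorant receptor on the cilium of a sensory neuron activates the G protein G-olf, whose alpha subunit is Gnal. G-olf turns on adenylyl cyclase type III, encoded by Adcy3, and the cyclic AMP it makes opens a channel built around Cnga2. The neurons are renewed from basal progenitors that pass through a Neurog1 and Neurod1 stage, while Lhx2 and Ebf factors act on receptor choice and on the genes of the mature cell. Several of these genes also work elsewhere, so that a level in palate RNA does not by itself name a cell type.

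The genes named in the label were checked first. Signals are scaled array intensities in arbitrary units, and log2 ratios run double null over wild type. Myod1 gave 1663 on the array labelled double null and 1938 on the wild-type array in its measured probe set, and Myf5, below the level for a measured gene, gave 531 and 517. The Myod1 log2 ratio was -0.22, and its dim probe set gave 306 and 282. At its level Myf5 cannot be called present or absent on either array. These probe sets check the label only if they lie in the removed parts. Skeletal muscle markers were below 0 in 10 of 10 genes, with a median log2 ratio of -0.89. Tnnc2, Des, Tnni1, Ckm and Myh8 were from 3.23-fold to 2.09-fold lower. Much muscle signal remained on the array labelled double null, with a sum over the 10 genes of 99168 against 180360 in wild type. Acta1 had 23430 and 38283, and Myh3 17251 and 25860. The genotype itself was not tested. Sex-linked transcripts also set the arrays apart: Eif2s3y on the Y chromosome had 2794 on the array labelled double null and 10.8 in wild type, and Xist 16947 and 33813 in its brightest probe set. Genotype, animal, sex and dissection cannot be told apart in this design.

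On the array labelled double null, most of the olfactory neuron genes were higher. Of the 9 genes, 8 had a log2 ratio above 0 and 1 below, and the median log2 ratio was 0.79, against 0.07 over all 11238 measured genes. Neurog1 and Cnga2 were at least 2-fold higher, and none was at least 2-fold lower. In whole tissue, more cells of a type and more RNA per cell cannot be told apart, nor can fewer cells and less RNA per cell. Over all measured genes 3.51% were at least 2-fold higher, 4.22% at least 2-fold lower, and 56.3% lay above 0. Measured genes were those whose brighter array had a signal of at least 658, which is the 60th percentile of the probe sets. Other scalings moved these shares: with reference (housekeeping) genes set equal by their median signal, 12.7% of genes were at least 2-fold higher and 1.79% lower, and with their median ratio set to 1, 2.07% and 6.25%.

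All 9 genes passed that level, but Omp, Cnga2 and Neurog1 passed it on the array labelled double null alone. A gene kept in that way had to be higher there, so these genes add nothing to a count of directions. The other 6 were measured on both arrays. Their median log2 ratio was 0.78, with 5 above 0, Adcy3 below 0 and no gene past 2-fold. Neurod1 was among the 5, and its other probe set lay below 0. No matching share or median over all genes measured on both arrays is given here. The limit set by passing on 1 array alone also holds for counts in the lists of other genes. Pde1c, Nhlh2, Cxcr4, Cartpt, Trpv1, Neurod2, Eomes, Ttr and Kcnj13 were measured on the array labelled double null alone and had to be higher. Des, Tekt2, Itgb4, Igll1, Pax5, Cebpa, Atoh7 and Lhx6 were measured in wild type alone and had to be lower.

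**Figure D1:**
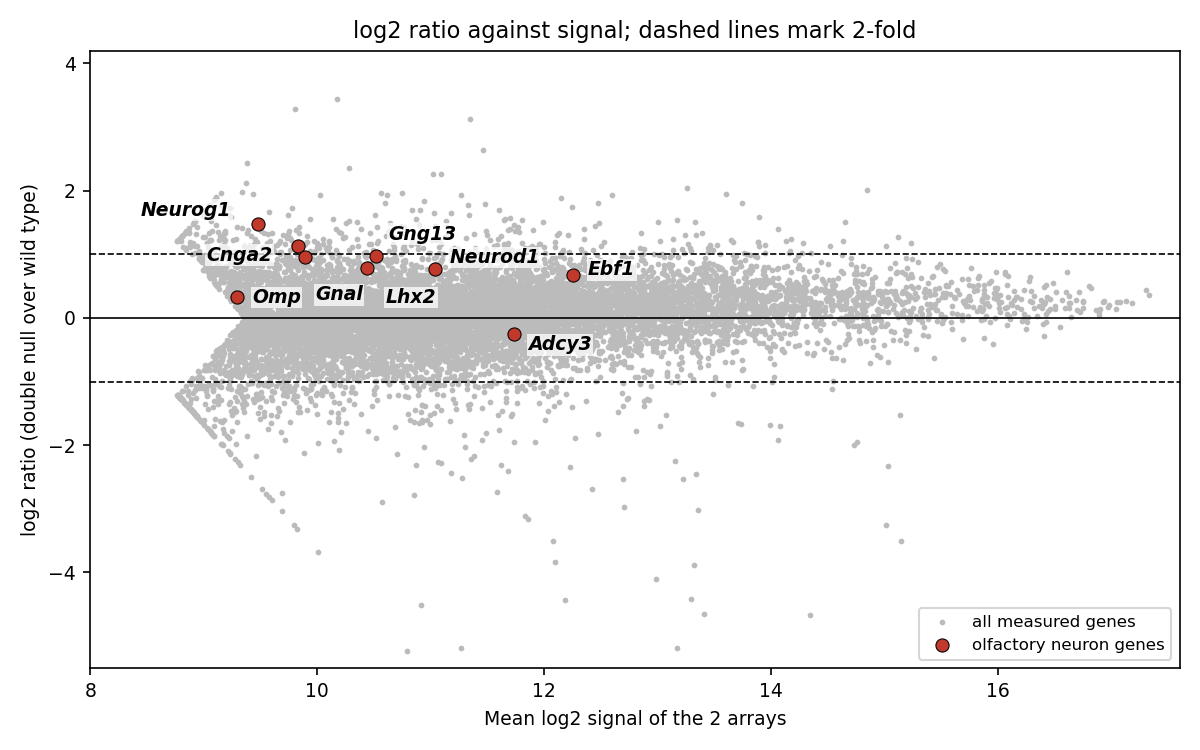
log2 ratio of the array labelled double null over wild type (vertical axis) against the mean log2 signal of both arrays (horizontal axis) for the 11238 measured genes, with the 9 olfactory neuron genes in red and 2-fold marked by dashed lines. Neurog1 and Cnga2 lie above the upper line, Adcy3 lies below 0, and the wedge at the left edge is set by the floor and by the level for a measured gene.

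Probe sets of a single gene differ among themselves, and this is the only spread these arrays offer. Across 10190 measured probe sets of 4030 genes, log2 ratios within a gene had a pooled SD of 0.515, which includes probe and isoform effects and no difference between animals. Of the 22 probe sets of the olfactory neuron genes 15 were measured. Among these, 12 lay above 0 and 3 below (2 of Adcy3 and 1 of Neurod1). At least 2-fold higher were 3, 1 each of Cnga2, Gnal and Neurog1. These 3 and the measured Omp probe set reached the measured level on the array labelled double null alone. The Gnal one had 1065 there and 251 in wild type. Such probe sets had to lie above 0 and add nothing to a count of directions. No probe set measured on both arrays was at least 2-fold higher. Over all 17407 measured probe sets 56.1% lay above 0 and 3.68% were at least 2-fold higher. Probe sets of a gene share its RNA and are not replicates.

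**Figure D2:**
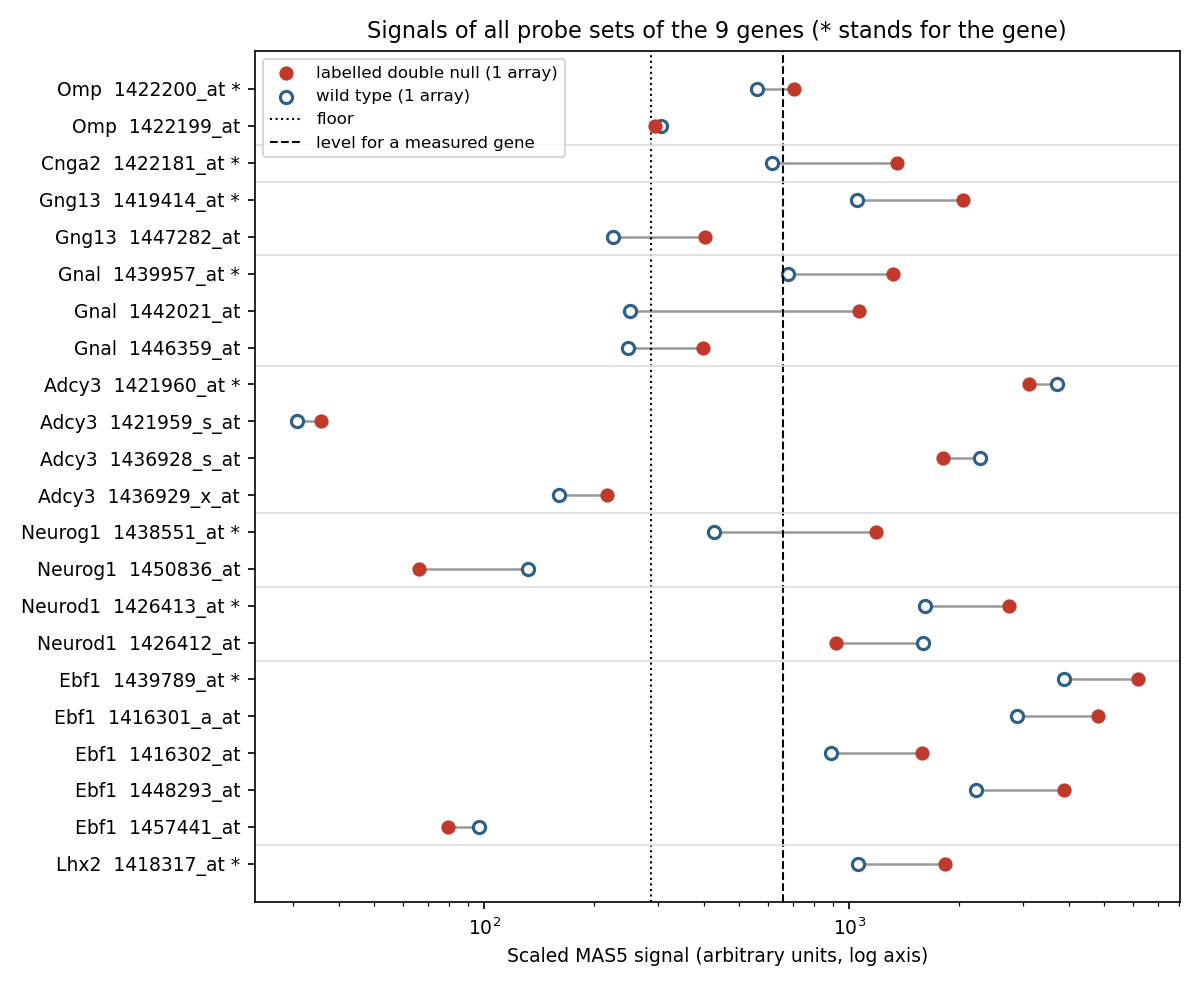
Scaled MAS5 signal (log axis, arbitrary units) of the 22 probe sets, with the array labelled double null in filled red and wild type in open blue, and with the floor at 287 and the level of 658 for a measured gene as vertical lines. The 4 measured Ebf1 probe sets shift by a similar step to the right, the 2 Neurod1 probe sets shift in opposite directions, and the 2 bright Adcy3 probe sets shift slightly to the left.

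Start-site sequences were searched because Ebf1 is also known as a protein that binds a site shared by olfactory neuron genes. Those shown, of Cnga2, Gng13 and Neurog1, each hold a match. The other windows of the set, with or without a match, are not printed. RefSeq windows of GRCm38.p6 ran from 250 bases before a transcription start to 50 after it. Windows of 7 of the 9 genes were used, 11 in all. None was used for Omp or Gnal, so the counts of windows of the set leave these genes out and do not say whether they hold a match. Capitals mark CCCNNGGG, the core bound by Ebf factors, in Cnga2 (chrX:71991599-71991898, plus strand) and Gng13 (chr17:25716922-25717221, plus strand). In Neurog1 (chr13:56252131-56252430, minus strand) they mark TAATTA, a core bound by LIM homeodomain factors such as Lhx2. All windows are written 5′ to 3′ on the gene's strand.
Cnga2: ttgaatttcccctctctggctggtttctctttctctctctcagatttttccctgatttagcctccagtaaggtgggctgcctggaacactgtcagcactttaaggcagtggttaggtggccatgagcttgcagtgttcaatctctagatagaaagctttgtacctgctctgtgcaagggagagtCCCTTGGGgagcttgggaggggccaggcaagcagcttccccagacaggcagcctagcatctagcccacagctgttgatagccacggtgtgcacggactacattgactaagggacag
Gng13: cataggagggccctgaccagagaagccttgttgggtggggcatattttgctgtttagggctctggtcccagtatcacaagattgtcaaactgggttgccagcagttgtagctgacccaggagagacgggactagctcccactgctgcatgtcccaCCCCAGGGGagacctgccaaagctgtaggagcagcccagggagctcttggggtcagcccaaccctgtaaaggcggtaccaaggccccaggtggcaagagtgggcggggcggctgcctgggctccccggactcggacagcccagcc
Neurog1: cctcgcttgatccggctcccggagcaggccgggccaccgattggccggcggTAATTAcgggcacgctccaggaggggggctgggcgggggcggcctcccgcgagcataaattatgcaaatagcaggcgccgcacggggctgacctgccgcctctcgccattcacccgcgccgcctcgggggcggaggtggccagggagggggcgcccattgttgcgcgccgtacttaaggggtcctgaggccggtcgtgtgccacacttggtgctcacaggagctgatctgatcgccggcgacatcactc

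The Ebf core reads the same on both strands and was found in 3 of the 11 windows and in 13.7% of all 32851 windows. In Cnga2 it began 66 bases before the start, and in Gng13 there were 2 overlapping matches, beginning 95 and 94 bases before it. The other such window belonged to Lhx2, with matches beginning 1 and 2 bases after the start. TAATTA, also its own reverse complement, occurred in the Neurog1 window alone, 199 bases before the start, and in 5.29% of all windows. CAGATG or its reverse complement CATCTG, an E-box that Neurog1 and Neurod1 can bind, occurred in 2 windows (of Adcy3 and Lhx2) and in 17.2% of all windows. These are matches of letters and were not tied to binding or to the ratios.

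Among the genes of the odour signal, those of the G protein and the channel were higher and the cyclase was not. Cnga2, the channel subunit that carries the current of the olfactory cilium, had a signal of 1348 on the array labelled double null, against 615 in wild type, and was 2.19-fold higher (log2 ratio 1.13). It is the 1 gene of the set on the X chromosome, whose 368 measured genes had a median log2 ratio of 0.14, and 20 of these were at least 2-fold higher. Only a single probe set reads Cnga2, so its ratio has no second reading.

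Gnal, the alpha subunit that couples odorant receptors to the cyclase, had 1322 on the array labelled double null and 679 in wild type in the probe set that stands for it, a log2 ratio of 0.96. A second probe set gave 1065 and 251. The wild-type value there was below 287, the floor to which low signals were raised, so it was at least 3.71-fold higher. The remaining, dim probe set gave 399 and 247. Thus all 3 Gnal probe sets were higher there, by 1.95-fold, at least 3.71-fold and at least 1.39-fold. Gnal is also a main G protein of the striatum. None of 3 striatal markers was measured: Ppp1r1b had 327 on the array labelled double null and 113 in wild type, Drd1 had 112 and 319, and Drd2 was below the floor on both arrays.

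Gng13, a gamma subunit that pairs with G-olf and also serves taste cells, had 2052 on the array labelled double null and 1049 in wild type (1.96-fold higher, log2 ratio 0.97). Its dimmer probe set gave 402 and 225, at least 1.40-fold higher. Both readings lay on the same side of 0, and the brighter one fell just short of 2-fold. Of 8 taste cell markers, 1 was measured (Itpr3, 1126 on the array labelled double null and 1612 in wild type), and Tas1r1, Tas1r3 and Car4 were below the floor on both arrays. Among the dim ones, Plcb2 was at least 1.59-fold higher (457 and 243) and Pou2f3 at least 1.60-fold higher (458 and 266), while Trpm5 had 291 and 296 and Tas1r2 295 and 114. The median of this list was -0.52 for its 1 measured gene and 0.67 for 3 genes with the filter at the 50th percentile. Their part in the Gng13 value was not tested.

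Adcy3, the cyclase of the olfactory cilium, which also marks primary cilia of other cells, was lower in its bright probe sets. They gave 3113 on the array labelled double null against 3699 in wild type, and 1804 against 2280, log2 ratios of -0.25 and -0.34. Neither shift reached 0.515, the pooled SD within a gene. The other 2 Adcy3 probe sets were below the floor on both arrays and gave no ratio.

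Omp, the olfactory marker protein of mature sensory neurons, was dim on both arrays. Its probe sets gave 706 on the array labelled double null against 560 in wild type, and 294 against 305. The log2 ratios were 0.34 and -0.05, so neither reached the SD within a gene. Omp thus stood nearer to all genes (the 72.8th percentile of ratios) than Cnga2 (97.7th), Gng13 (96.1th) or Gnal (96.0th).

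The transcription factors were higher in the probe set that stands for each gene. Neurog1, the proneural factor that commits olfactory and cranial sensory ganglion precursors to a neuronal fate, had 1186 on the array labelled double null and 426 in wild type. At 2.79-fold (log2 ratio 1.48, the 99.3th percentile) it had the highest ratio of the 9 genes. Its other probe set gave 66.3 and 132, both below the floor, and gave no second ratio.

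Neurod1, which follows Neurog1 as neurons mature, could not be given a direction. The probe set that stands for it had 2733 on the array labelled double null and 1611 in wild type, a log2 ratio of 0.76. The other had 919 and 1594, a log2 ratio of -0.79. Averaged, they gave -0.02 with an SD of 1.10 between them (2 probe sets). The choice of 1 of them fixes the sign of this gene in every count of genes above.

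Ebf1 had the most measured probe sets, and they lay close together. It is a helix-loop-helix factor of olfactory neurons that is also needed for B lymphocytes and is found in adipocyte and mesenchymal precursors. Signals were 6171, 4789, 1582 and 3887 on the array labelled double null, against 3875, 2890, 890 and 2229 in wild type. The 4 log2 ratios ran from 0.67 to 0.83, with a mean of 0.76 ± 0.072 (SD over probe sets of 1 pair of arrays). Its remaining probe set was below the floor on both arrays.

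Markers of other cells that use Ebf1 were read for B cell precursors and adipocytes, and not for mesenchymal precursors. Of 8 B cell precursor markers 3 were measured and all 3 were below 0, with summed signals of 1386 on the array labelled double null and 4601 in wild type. Most of that gap came from Igll1, a surrogate light chain gene, with 138 and 2852 (at least 9.94-fold lower). Pax5, the B cell identity factor, had 404 and 806, and Blnk, an adaptor of B cell receptor signalling, 844 and 943. Igll1 and Pax5 were measured in wild type alone and had to be lower. Only Blnk, with a log2 ratio of -0.16, could have gone either way. Vpreb3 was dim (389 and 46.6), and Cd79a, Cd79b, Vpreb1 and Rag1 were below the floor on both. Of 7 adipocyte markers 4 were measured, 2 of them above 0, with summed signals of 30043 and 26235. Zfp467 had a log2 ratio of 0.55, Fabp4 0.40 (-0.27 in its other probe set) and Cebpa -0.29, and Adipoq, Pparg and Cidec were below the floor on both. The part of any of these cells in the Ebf1 value was not tested.

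Lhx2, a LIM homeodomain factor needed for olfactory neuron maturation and also active in hair follicles and forebrain, had 1825 on the array labelled double null and 1055 in wild type (log2 ratio 0.79). It too rests on 1 probe set. The ratio exceeds the SD within a gene and stays below 2-fold.

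Other members of the same gene families were read for comparison. Of 5 cyclic nucleotide-gated channel genes on the arrays Cnga2 alone was measured. Its olfactory partner subunits, named here for their role, were dim: Cnga4 had 475 on the array labelled double null and 256 in wild type, and Cngb1 had 258 and 349. Among 11 measured G protein alpha genes, with a median log2 ratio of 0.35, Gnal had the highest ratio, followed by Gnao1, the alpha subunit of neurons, at 0.90, and Gna11 was lowest at -0.63. Among 8 measured gamma genes, with a median of 0.25, Gng13 was highest, Gng3 had 0.66 and Gng4 was 2.22-fold lower.

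Adenylyl cyclases had a median of 0.15 over 8 measured genes. Adcy1 and Adcy2 had log2 ratios of 0.54 and 0.36 and Adcy6 was 2.11-fold lower, so Adcy3 lay inside the range of its family. All 4 Ebf genes were measured, and Ebf3 was 2.19-fold higher (4466 and 2043, with a median of 0.69 over its other 2 measured probe sets), Ebf2 had 0.28 and Ebf4 -0.14. Of 15 proneural helix-loop-helix genes 5 were measured. Besides Neurog1 and Neurod1, Neurod2 had 0.97 at a low signal (716 and 365) and Atoh7 was at least 2.38-fold lower. Of 12 LIM homeodomain genes 5 were measured, and next to Lhx2 only Isl1, a factor of sensory and motor neurons, was above 0, at 0.81. Isl2 had -0.79.

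Other genes of odour transduction were mostly higher too. Of 11 on the arrays 7 were measured, 6 of them above 0, with a median log2 ratio of 0.71. Pde1c, the calcium-activated phosphodiesterase of olfactory cilia, was 2.68-fold higher (1501 and 560), and Reep1, named for its help in bringing receptors to the surface, 2.04-fold higher (6827 and 3338). Grk3, a kinase that desensitises odorant receptors, was 2.75-fold lower (1903 and 5236), while its other probe set gave 0.52. The receptors themselves were not measured: none of 39 olfactory receptor genes, 32 vomeronasal receptor genes and 1 trace amine receptor gene reached 658. Of the 39, 29 were below the floor on both arrays, and the highest signals were 657 on the array labelled double null and 606 in wild type.

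Differentiation genes outside the 9 had a smaller median. Of 20 on the arrays 17 were measured, 12 above 0 and 5 below, with a median of 0.33. Nhlh2 (2.20-fold) and Ebf3 passed 2-fold, and Insm1, a zinc finger factor of neurogenic progenitors, had 0.83. Markers of immature olfactory neurons had a median of 0.56 over 9 genes, of which 7 were above 0. Stmn2, a tubulin-binding protein of growing axons, was 2.28-fold higher, Cxcr4 had 0.88 and Dcx, a microtubule protein of young neurons, 0.60. Markers of mature olfactory neurons had a median of 0.42 over 7 measured of 8, with 5 above 0 and 2 below. Slc17a6, a vesicular glutamate transporter of many neurons, was 8.74-fold higher (7676 and 878, with 1.38 in its other measured probe set), while Cartpt had 0.73 and Ncam2, an adhesion molecule of olfactory axons, 0.66. Below 0 were Kirrel3 at -0.51 (0.31 in its other measured probe set) and Calb2 at -0.37, and S100a5 was dim with 506 and 502. These lists share genes with one another and with general neurons.

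**Figure D3:**
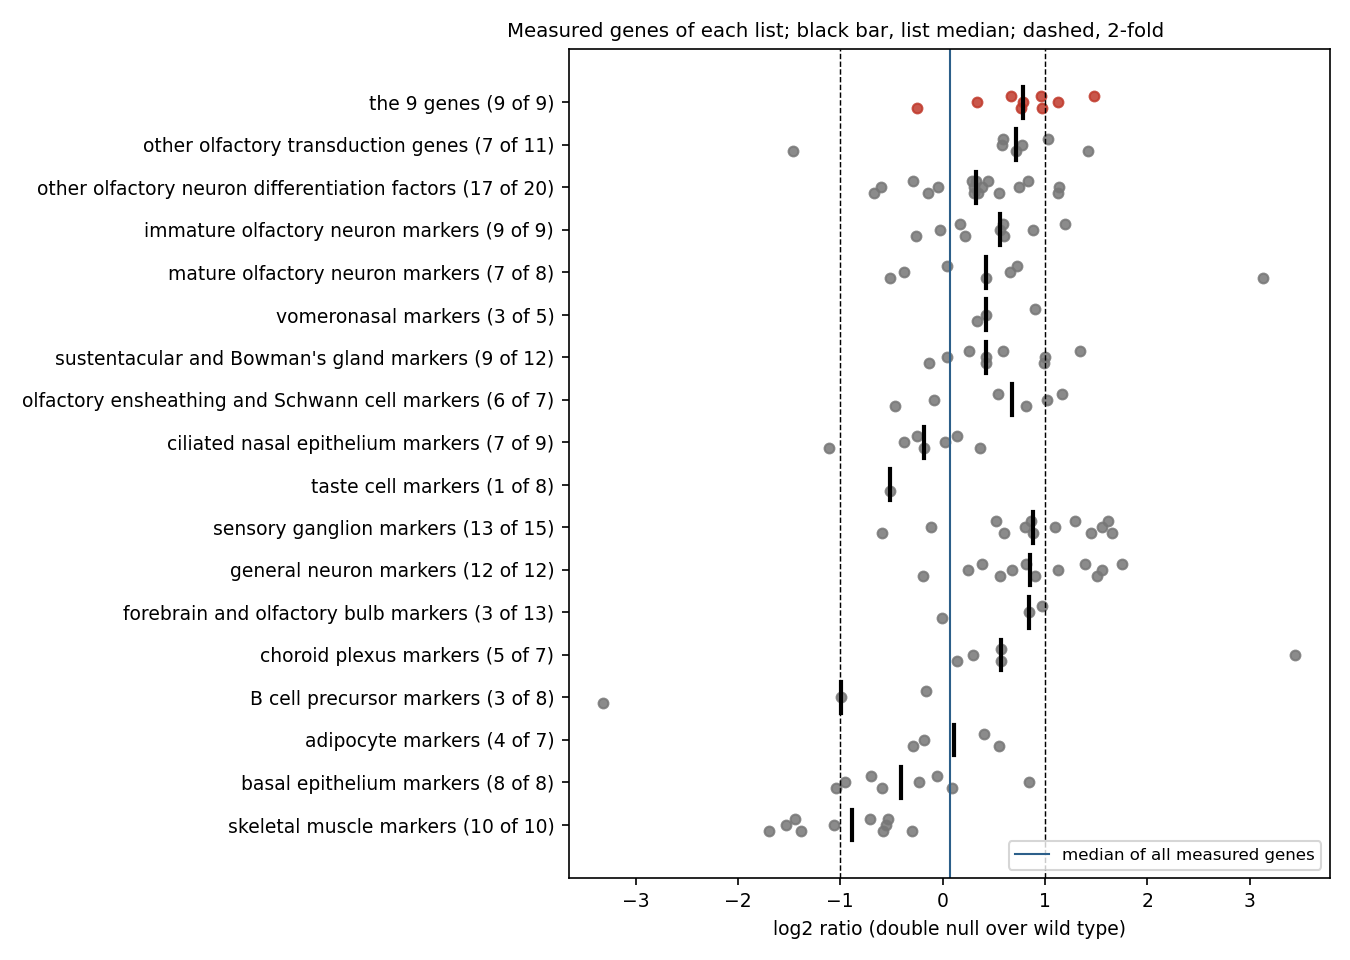
log2 ratio of the array labelled double null over wild type (horizontal axis) for each measured gene of the 9 olfactory neuron genes (top, red) and of other lists (grey), with the list median as a black bar, the median of all measured genes (0.07) in blue and 2-fold as dashed lines. The number measured of those on the arrays stands beside each name. Olfactory, sensory ganglion and general neuron lists have medians above 0.3, and skeletal muscle markers lie wholly below 0.

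Genes of other cells of the nose divided. Sustentacular and Bowman's gland markers, which belong to the support cells and glands of the olfactory epithelium, were above 0 in 8 of 9 measured genes, with a median of 0.43 and summed signals of 103373 on the array labelled double null and 80304 in wild type. Cyp2g1, an olfactory cytochrome P450, was 2.54-fold higher (5592 and 2203), Lcn3 2.01-fold higher, and Sult1c1 had 0.99, while Cyp1a2 and Obp1a were below the floor on both arrays. Ensheathing and Schwann cell markers had a median of 0.68 over 6 measured genes, 4 above 0 and 2 below. Dhh was 2.24-fold and Fabp7 2.03-fold higher and Ngfr had 0.82, while Sox10 had -0.47 (-0.50 in its other probe set) and Erbb3 -0.08. Vomeronasal markers had 0.43 over 3 measured genes (Gnao1 at 0.90, Gnai2 at 0.43 and Meis2 at 0.33). Other measured probe sets gave -0.11 for Gnai2 and a median of 0.12 for Meis2. In contrast, ciliated respiratory epithelium had a median of -0.18 with 3 of 7 above 0, Tekt2 2.16-fold lower, Rsph1 at -0.37 and Tmem212 at 0.37. Basal epithelium, a list not limited to the nose, had a median of -0.41. Lamb3 was 2.06-fold lower, Krt15 had -0.96 and Epcam 0.85 (-1.42 in its other probe set).

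Markers of neurons outside the nose were mostly higher in the same comparison. Sensory ganglion markers, of neurons that also pass through Neurog1 and Neurod1, were above 0 in 11 of 13 measured genes, with a median log2 ratio of 0.89 and summed signals of 63050 on the array labelled double null and 38465 in wild type. The 6 genes at least 2-fold higher were Ret (3.15-fold), Pou4f1 (3.07-fold), Scn11a (2.94-fold), P2rx3 (2.74-fold), Trpv1 (at least 2.46-fold) and Scn9a (2.14-fold). General neuron markers were above 0 in 11 of 12 genes, with a median of 0.86 and summed signals of 150786 and 68492. Elavl4, Snap25, Nefl, Rbfox3 and Stmn3 were from 3.36-fold to 2.18-fold higher. The part of these neurons in the values of the 9 genes was not tested.

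Few brain markers were measured, while the measured choroid plexus markers were higher. Of 13 forebrain and olfactory bulb markers 3 were measured (Neurod2 at 0.97, Eomes at 0.85 and Reln at 0.00), with summed signals of 6845 on the array labelled double null and 6193 in wild type, and Neurod6, Tbr1, Tbx21 and Drd2 were below the floor on both arrays. Dim ones ran both ways, with Gad1 at 414 and 192, Gad2 at 453 and 340, and Slc17a7 at 238 and 434. Choroid plexus markers were above 0 in 5 of 5 measured genes, with a median of 0.57 and summed signals of 29687 and 18568. Ttr, transthyretin, was 10.9-fold higher (3805 and 350, with a median of 2.56 in its other 3 probe sets), Otx2 and Clic6 each had 0.57, and Kl was below the floor on both arrays. The part of such tissue in the values of the 9 genes was not tested.

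The size of the ratio depended on processing for all 9 genes, and its sign for Adcy3 and Neurod1. With the housekeeping genes set equal by median signal, the median of all genes was 0.47. That put 7 of the 9 genes past 2-fold, where 12.7% of all genes then lay, and gave Adcy3 a log2 ratio of 0.14. Some list medians changed sign, besides taste cells: with that scaling, to 0.21 for ciliated epithelium and 0.14 for LIM homeodomain factors, which also had 0.27 (4 genes) without cross-hybridising probe sets or with the filter at the 75th percentile. The adipocyte median ran from 0.11 as reported to -0.18 (3 genes) without cross-hybridising probe sets and was -0.04 with the median ratio set to 1, and the adenylyl cyclase median was -0.07 as a mean over probe sets. Relative to the median of all genes, the median of the 9 was higher by 0.71 under that scaling and by 0.72 as reported.

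**Figure D4:**
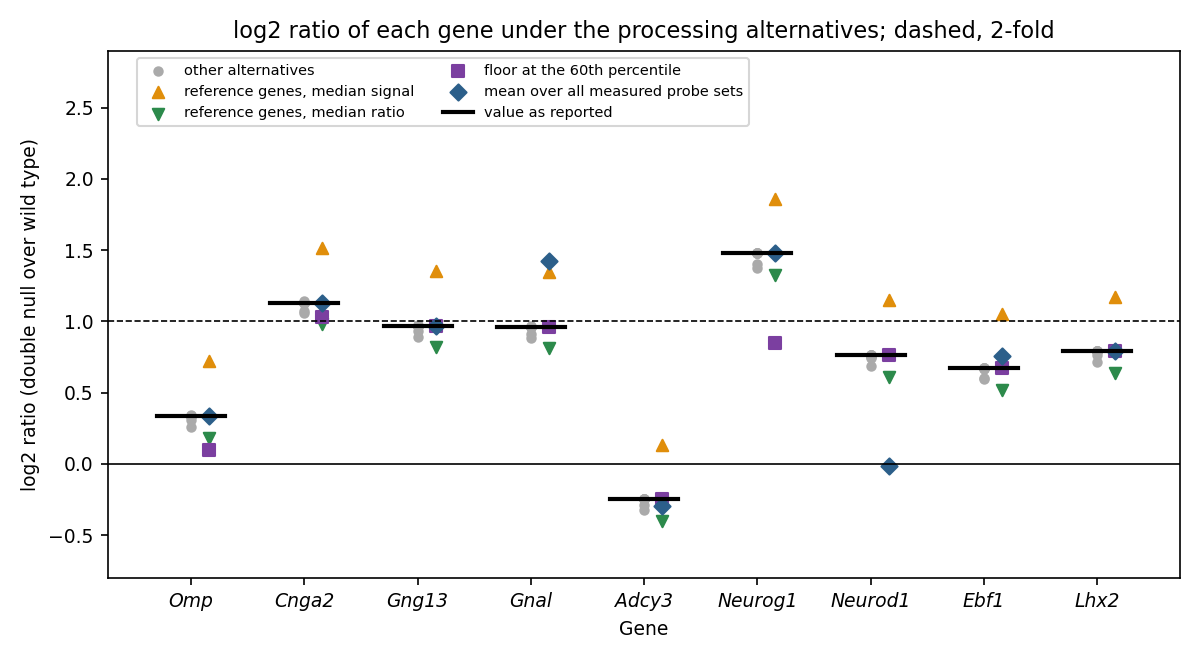
log2 ratio of the array labelled double null over wild type (vertical axis) for each of the 9 genes under the processing alternatives, with the value as reported as a black bar and 2-fold as a dashed line. Setting the housekeeping genes equal by median signal ("reference genes, median signal") lifts each of the 9 genes by a like step, the higher floor brings Neurog1 to 0.85, and averaging probe sets brings Neurod1 to -0.02.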

How the data were processed

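Total RNA (6 µg per sample) from E18.5 palate was labelled as biotinylated cRNA, 1 array per genotype. The deposited values are linear signal intensities per probe set, which the authors computed with MAS5 according to the submitters' processing notes; its version is not given in the sources. Both arrays had the same trimmed mean (1500.01). The 64 control probe sets of 45101 were left out. Probe sets were named by the platform annotation, and the gene identifiers of 34741 of the 34945 probe sets with 1 gene were found in the RefSeq table of GRCm38.p6.

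Arrays were brought to a common median over the probe sets reaching the 50th percentile on each, by factors of 1.03 (double null) and 0.974 (wild type). Signals below the 40th percentile (287) were raised to it, and log2 was taken. Folds with 1 array below it are written "at least". Where a gene had several probe sets, the one with the highest mean log2 signal stands for it.

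No test was possible, and the number of arrays limits the precision. Members and lists were chosen with earlier results of these data known. Genes named outside the 9 were, in each list, those past 2-fold and up to 3 with the largest ratios. Others were named for their role, as checks, as markers below the measured level, or to qualify a count or median. Steps were tested on simulated data. Python 3.11.15, numpy 2.4.6, pandas 2.3.3 and matplotlib 3.10.9 were used.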

Additional observations from a re-analysis of the deposited data

How the results depend on the processing

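The count of the 9 genes at least 2-fold higher, 2 as reported, was 7 when housekeeping genes were set equal by median signal, 1 when their median ratio was set to 1, 1 with the floor at the 60th percentile and 0 of 5 genes with the filter at the 75th percentile. It was 7 at 1.5-fold, which 13.2% of all genes passed, and 0 at 3-fold. The count above 0, 8 of 9 as reported, was 4 of 5 with the filter at the 75th percentile, 9 of 9 when housekeeping genes were set equal by median signal, 7 of 9 with the mean over measured probe sets, and 7 of 9 with the lowest ratio among the measured probe sets of each gene (added after seeing the data). Restricting to genes measured on both arrays, chosen after seeing the data, left 6 genes with 0 past 2-fold and 5 above 0. The median log2 ratio moved by less than the SD between probe sets under every alternative run. Neurog1 had 0.85 with the floor at the 60th percentile. Neurod1 had -0.02 as a mean of its probe sets. The causes were not tested. No paired analysis was possible because each genotype had 1 array. Signals near the floor limit what can be said of Omp, Cnga2 and Neurog1.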
